A study of Homo sapiens with 11 samples.

Results

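Decitabine (DAC) was compared with its solvent, DMSO, in HCT116 cells that carried a control siRNA against luciferase (siLuc), a gene these cells do not have. The comparison takes in all genes of the total RNA libraries of these 2 groups, 4 of the 11 samples of the series: 2 libraries labelled siLuc DMSO and 2 labelled siLuc DAC. HCT116 is an established human colorectal cancer cell line, and the labels give the decitabine dose as 500 nM and the duration as 5 days. The same treatment was measured in cells with an siRNA against Staufen1 (siStau1), again with 2 DMSO and 2 DAC libraries, and those 4 samples, which share none with siLuc, serve here as a second arm. RNA enriched with an antibody was also sequenced and is not used here. All results are from 1 cell line, and the labels do not say whether the 2 libraries of a group came from separate cultures.

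Decitabine is a cytidine analogue that is built into DNA during replication, where it traps DNA methyltransferases, so that methylation of CpG sites is lost as cells divide. Methylation of CpG-rich promoters keeps germ cell genes and many tumour-silenced genes off in somatic cells. Loss of methylation is also known to let repeats be transcribed into double-stranded RNA, which can start an interferon response, and the drug's adducts on DNA can start a damage response.

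The authors' deposited table gives 1 FPKM value (fragments per transcript length and per library size) per group, with no value per library. So every level below is a group value without an error, the depth of the libraries is unknown, and "rose", "fell" and "called" refer to the authors' deposited q-value under 0.05. Changes are log2 ratios of DAC over DMSO, after adding 0.1 FPKM to either value, and so come out too small for weakly expressed genes. An exact 0 in such a table can be a failed estimate, so genes are said to be listed at 0 and no fold is given for them. Of 58699 genes, the authors tested 17504, and each of these reached at least 0.528 FPKM in 1 of the 2 groups. They called 1524 genes higher (8.71% of those tested) and 836 lower (4.78%) with decitabine. Of the 1524, 438 were listed at 0 in DMSO, and of the 836, 15 were listed at 0 in DAC. Many of the higher calls thus rest on such zeros. The smallest q-value in the comparison was 0.00162. In the siStau1 arm 775 of 16979 tested genes were called higher (4.56%) and 491 lower (2.89%). Of the 1524 genes called higher, 1353 were also tested in that arm, where 1348 had the same sign and 541 were called higher. Of the 836 called lower, 826 were tested there, 816 had the same sign and 333 were called lower.

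A trend with transcript GC content ran through all of these values. Among protein-coding genes that reached 1 FPKM in DMSO and in DAC, split into 20 equal bins by the GC content of their longest transcript, the median log2 ratio climbed from -0.946 in the lowest bin to 1.201 in the highest. The share of genes called higher climbed from 0.182% to 27.7%, and the share called lower dropped from 19.5% to 0%. The median transcript GC content was 57.1% for the genes called higher and 41.2% for those called lower. What sets this trend was not tested. To look beyond it, each gene's ratio is also given after the median of its GC bin was taken off, called GC-centred below. Centring shifted the median over all tested genes by -0.13, from 0.23 to 0.10. It turned the sign of 19 of the 1524 genes called higher and of 0 of the 836 called lower, and 1003 and 539 of them remained at least 1 away from 0 on the log2 scale.

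**Figure D1:**
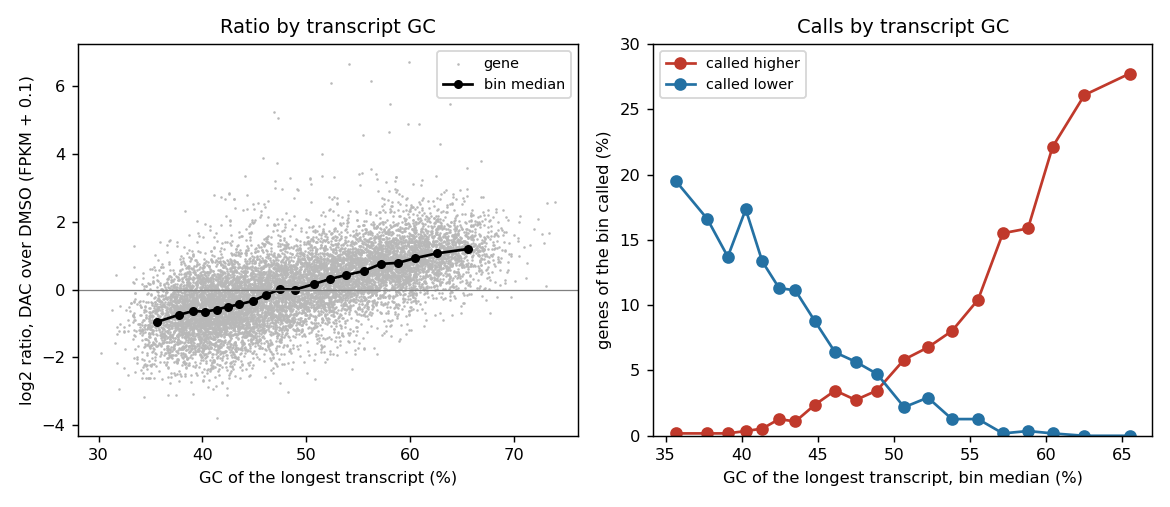
Left, log2 ratio of DAC over DMSO in siLuc cells (FPKM + 0.1) against GC content of the longest transcript in percent, 1 grey point per protein-coding gene that reached 1 FPKM in DMSO and in DAC, and black points for the medians of 20 bins. Right, the share of each bin's genes called higher (red) or lower (blue) in the authors' deposited table; the bin medians climb from -0.946 to 1.201.

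Germ cell genes stood among the highest gains. Cancer-testis antigens are proteins made in the testis and, after loss of promoter methylation, in tumours, and many are encoded in X-linked families. MAGEA4 (X:151912509-151925170, GRCh38), a member of the MAGE family of ubiquitin ligase regulators, was listed at 0 in DMSO and at 97.5 FPKM in DAC. DAZL (3:16586792-16670306), an RNA-binding protein needed for germ cell development, went from a listed 0 to 12.3 FPKM. UCHL1 (4:41256413-41268455), a neuronal and germ cell deubiquitinase whose promoter is often methylated in colon cancer, went from a listed 0 to 155 FPKM, the second highest DAC level among protein-coding genes under 0.1 FPKM in DMSO. Values in siStau1 cells were like these: MAGEA4 was listed at 0 in DMSO and at 119 FPKM in DAC, and UCHL1 at 0 and 118 FPKM. The 300 bases around the starts of these genes (250 before to 50 after, from RefSeq on GRCh38.p14, read on the gene's strand) are shown since they differ in how many CpG sites they hold. The window of MAGEA4 is chrX:151912224-151912523 on the plus strand, that of DAZL chr3:16605374-16605673 on the minus strand and that of UCHL1 chr4:41256678-41256977 on the plus strand. Capitals mark CpG dinucleotides.
MAGEA4: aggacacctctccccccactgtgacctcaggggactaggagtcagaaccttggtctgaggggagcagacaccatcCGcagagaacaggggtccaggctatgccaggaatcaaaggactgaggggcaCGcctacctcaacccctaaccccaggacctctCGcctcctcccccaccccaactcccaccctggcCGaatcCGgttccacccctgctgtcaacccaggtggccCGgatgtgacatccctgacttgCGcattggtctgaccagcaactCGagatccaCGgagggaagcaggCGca
DAZL: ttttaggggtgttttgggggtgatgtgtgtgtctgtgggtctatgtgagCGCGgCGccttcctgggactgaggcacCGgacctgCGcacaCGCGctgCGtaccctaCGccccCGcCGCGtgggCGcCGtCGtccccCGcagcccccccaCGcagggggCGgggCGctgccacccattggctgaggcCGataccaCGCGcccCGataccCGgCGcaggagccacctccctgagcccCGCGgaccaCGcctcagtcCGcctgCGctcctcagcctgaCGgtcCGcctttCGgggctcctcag
UCHL1: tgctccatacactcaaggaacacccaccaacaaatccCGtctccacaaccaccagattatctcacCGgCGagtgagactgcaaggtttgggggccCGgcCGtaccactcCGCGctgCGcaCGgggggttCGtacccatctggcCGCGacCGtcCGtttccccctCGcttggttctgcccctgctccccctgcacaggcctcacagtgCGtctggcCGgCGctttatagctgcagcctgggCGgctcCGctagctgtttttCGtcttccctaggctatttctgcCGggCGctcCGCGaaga
MAGEA4 holds 10 CpG sites in this window, DAZL 33 and UCHL1 25, where the median over all 15353 matched promoters was 22.

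Of the 26 MAGEA, MAGEB and MAGEC genes, 19 were tested and 15 rose, 13 of them from a listed 0 in DMSO. MAGEC2 reached 15.8 FPKM, MAGEA12 15.1 and MAGEA1 13.2. MAGEB1 rose from 0.276 to 14.3 FPKM and MAGEA6 from 0.119 to 13.9. Of 87 other X-linked cancer-testis antigens, 32 were tested, 25 rose and 38 were listed at 0 in both groups. GAGE2A reached 71.6 FPKM, PAGE1 57.5 and CTAG2, which encodes the antigen LAGE-1, 26.8, all from a listed 0. CSAG1 rose from 0.982 to 18.6 FPKM and SSX1, a transcriptional corepressor, from 0.241 to 25.7. Because 17 of the 19 tested MAGE genes and 29 of the 32 others stood under 0.528 FPKM in DMSO, they could only be tested through their level in DAC, so a high share of calls among them is built in and is given here as a description. GAGE, VCX and PAGE copies and the pair MAGEA9 and MAGEA9B are nearly identical in sequence, and how reads were shared among them is uncertain.

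Autosomal germline genes were gained as well. Among 30 genes of the piRNA pathway and germ cell RNA biology, 18 were tested and 9 rose, 7 of them from a listed 0. MAEL, a piRNA factor, reached 15.2 FPKM, TDRD1, a Tudor-domain scaffold, 4.73, RNF17 1.65 and DDX4, the germ cell helicase VASA, 0.916. PIWIL2, an Argonaute protein that binds piRNAs, rose from 0.224 to 4.45 FPKM. TDRD12 was not called, at 0.0405 FPKM in DMSO and 12.4 in DAC. Of 34 meiosis and germline chromatin genes, 18 were tested and 7 rose. The pluripotency-linked DPPA genes all came from a listed 0, with DPPA4 at 5.52 FPKM in DAC, DPPA2 at 4.24 and DPPA5 at 2.28. CTCFL, the testis paralogue of the insulator protein CTCF, reached 3.34 FPKM, the synapsis protein HORMAD1 0.851, and the meiotic cohesin STAG3 rose from 0.229 to 3.22. In both lists most tested members (14 of 18 and 15 of 18) again stood under 0.528 FPKM in DMSO.

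**Figure D2:**
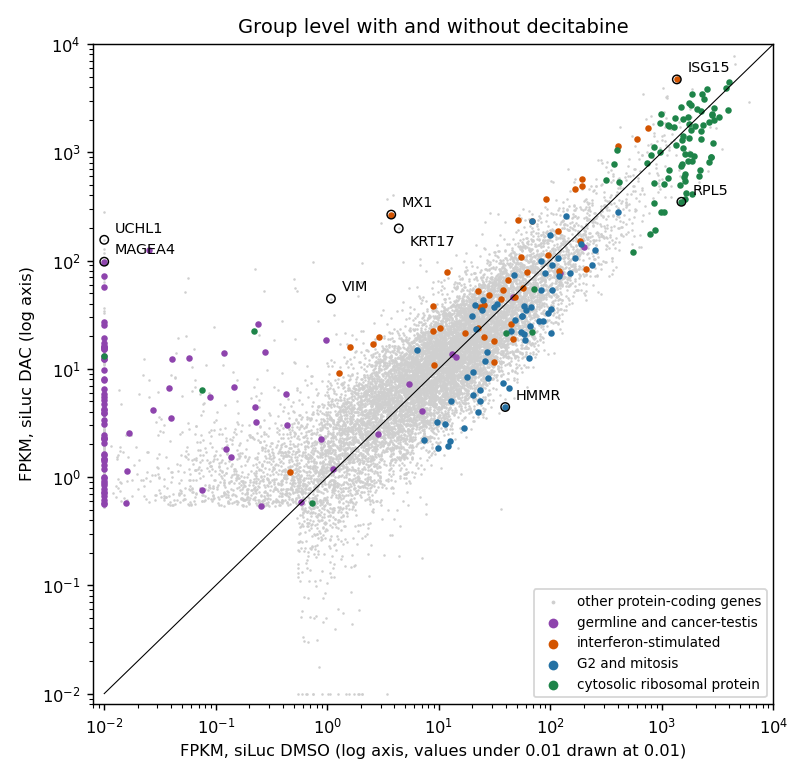
FPKM in siLuc DMSO (x) against siLuc DAC (y) on log axes, 1 point per tested protein-coding gene, with values under 0.01 drawn at 0.01; ringed genes are named. Germline and cancer-testis genes (purple) line the left edge, with MAGEA4 at 97.5 FPKM in DAC, and G2 and mitosis genes (blue) lie mostly under the diagonal.

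Over all protein-coding genes, gains from a low level were far more frequent than losses to one. Of 6509 protein-coding genes under 0.1 FPKM in DMSO, 423 were at 1 FPKM or more in DAC (6.50%). In the other direction, 17 of 4685 genes under 0.1 FPKM in DAC had been at 1 FPKM or more in DMSO (0.363%). The 423 gained genes had a median of 2.04 FPKM in DAC, 50 reached at least 10 FPKM, and 243 of them met the same rule in siStau1 cells. Of the 423 genes, 244 were listed at 0 in DMSO and 197 of these were called (80.7%), whereas of the 179 genes above 0 and under 0.1 FPKM only 26 were called (14.5%). Of genes in the second set with at least 10 FPKM in DAC, 0 of 15 were called. TKTL1, an X-linked transketolase-like gene that is a known target of promoter methylation, is the highest of them: it stood at 0.0254 FPKM in DMSO and 124 in DAC with a deposited q-value of 0.557, and at 0.00855 and 91.8 FPKM in siStau1 cells. LIN28B, an inhibitor of let-7 microRNA processing, had 0.0644 and 15.2 FPKM (q-value 0.0912), and ZFP42, the pluripotency marker REX1, 0.0226 and 12.2 FPKM (q-value 0.5999). So the authors' calls leave out many of the highest gains, and counts of called genes understate this class. These 3 genes were chosen after their values were seen.

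Gains were unevenly spread over chromosomes and over promoter classes. On the X chromosome 54 of 423 low genes were gained (12.8%), and on chromosome 19 60 of 478 (12.6%), of which 20 encode zinc finger proteins. Chromosome 1, by contrast, gained 23 of 666 (3.45%). By the number of CpG sites in the 300-base RefSeq promoter, the share of low genes gained was 1.52% with 0 to 2 sites (17 of 1122), 4.33% with 3 to 5, 7.55% with 6 to 10, 11.4% with 11 to 20 and 10.03% with over 20 (107 of 1067). On autosomes alone the shares were 1.49%, 3.88%, 6.91%, 8.77% and 10.5%. The median count of CpG sites was 14 in gained genes and 6 in those that did not reach 1 FPKM. Only 15353 of 19940 protein-coding genes (77.0%) and 303 of the 423 gained genes have a promoter entry, fewer than the 80% set for a check over a whole set, so these shares describe the matched genes alone. The rule for gained genes used FPKM without GC centring. Whether the shares by chromosome and by promoter class differ beyond the transcript GC trend was not tested. Losses showed no such order, at 0.1003%, 0.271%, 0%, 0.439% and 0.457% over the same classes, and each rests on 3 genes or fewer. Among more active genes no such order was seen: after GC centring, the median ratio of tested genes with at least 1 FPKM in DMSO lay between -0.05 and 0.01 in every class. The motif CACGTG, an E-box whose central CpG can be methylated, was in 12.2% of the gained promoters, in 6.30% of all low promoters and in 8.88% of all matched promoters. Other motifs that hold a CpG were likewise more frequent in gained than in low promoters. The ETS motif CCGGAAG was in 9.90% and 3.81%, against 14.4% of all matched promoters. The NRF1 motif (GCGC, any base, T and GCGC) was in 6.601% and 2.101%, against 8.58%. CCAAT and TTTGAA, which hold no CpG, were in 37.0% and 10.6% of gained and in 35.6% and 17.5% of low promoters. All motifs were searched on either strand. Gained promoters hold more CpG sites, and whether the motifs differ beyond that was not tested.

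**Figure D3:**
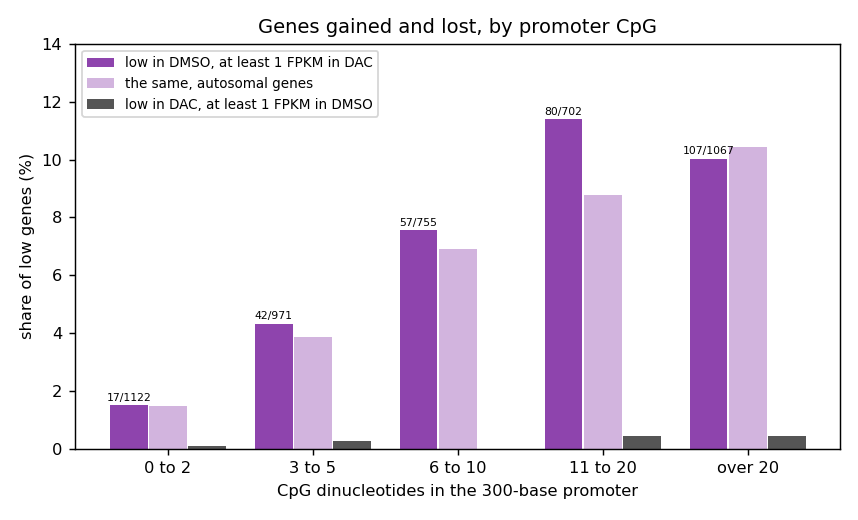
Share in percent of low protein-coding genes that were gained, by number of CpG dinucleotides in the 300-base RefSeq promoter: all chromosomes (purple, with counts), autosomes (pale) and genes lost in DAC (dark). The share gained climbs from 1.52% with 0 to 2 sites to 11.4% with 11 to 20, and no class lost more than 0.457%.

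Genes often silenced in colon tumours had mixed changes, and most of those tested were not called. Of 46 genes with promoters often methylated in colon cancer, 28 were tested, 7 rose and 2 fell, with a median log2 ratio of 1.09 (0.97 GC-centred). Of the 28, 9 stood under 0.528 FPKM in DMSO, 5 of the 7 that rose among them, and so were tested only through DAC; over the 16 members that reached 1 FPKM in DMSO and in DAC the median was 0.43. VIM, the intermediate filament vimentin whose methylation is used as a stool test for this cancer, rose from 1.08 to 44.4 FPKM, and SPARC, a collagen-binding matrix protein, from 1.48 to 52.9. CHFR, a mitotic checkpoint ubiquitin ligase, reached 3.99 FPKM, the protease inhibitor TFPI2 4.42 and the oestrogen receptor ESR1 1.56, all from a listed 0. Several classical members stayed under 0.5 FPKM in DAC, among them SFRP1 at 0.305, SFRP2 at 0.0454, SOX17 at 0.127 and GATA4 at 0.254 FPKM, and BMP3, SFRP4 and SFRP5 were listed at 0 in both groups. CDKN2A, which encodes p16 and ARF, was not called, at 16.8 FPKM in DMSO and 21.5 in DAC. HLTF, a helicase-like factor that is itself on this list, fell from 28.1 to 6.36 FPKM.

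Imprinted genes, expressed from 1 parental copy under the control of methylation, moved in both directions, though more rose. Of 42, 29 were tested, 8 rose and 1 fell, with a median ratio of 1.198 (1.01 GC-centred), or 0.74 over the 17 that reached 1 FPKM in DMSO and in DAC. The noncoding RNA H19 rose from 0.591 to 77.2 FPKM, a GC-centred change of 5.74, while its neighbour IGF2 was not called at 0.7901 and 2.01 FPKM. PHLDA2, a placental growth inhibitor, rose from 19.3 to 96.9 FPKM, the adaptor GRB10 from 9.29 to 34.6 and PEG10 from 1.55 to 6.41. MEG8, of the DLK1 and MEG3 cluster, was not called although it stood at 0.115 FPKM in DMSO and 37.1 in DAC, and MEG3 was listed at 0 in DMSO and 10.8 FPKM in DAC, also not called. SGCE fell from 10.1 to 3.58 FPKM. Of 509 genes of the ZNF series of zinc finger repressors, 402 were tested, 33 rose (8.21%) and 8 fell (1.99%), against 8.71% and 4.78% of all genes tested, with a median of 0.36 (0.50 GC-centred). ZNF880 reached 3.88 FPKM and ZNF529 2.52 from a listed 0, while ZNF708 fell from 5.31 to 0.552 FPKM.

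Interferon-stimulated genes, the antiviral effectors induced by interferon signalling, were already active in DMSO and rose in part. All 44 on the list were tested, 16 rose and 1 fell, and the median ratio was 0.88 (0.79 GC-centred). MX1, a GTPase that blocks virus replication, rose the most, from 3.74 to 266 FPKM, 70.96-fold. With histone genes left out, it also had the largest GC-centred rise of the protein-coding genes called that reached 1 FPKM in DMSO and in DAC. The neighbouring MX2 rose from 2.93 to 19.8 FPKM, OAS2, a sensor that makes the messenger of RNase L, from 1.61 to 15.8, and XAF1 from 2.57 to 16.9. At the high end, the ubiquitin-like ISG15 rose from 1359.6 to 4708 FPKM, IFI6 from 752 to 1669 and IFI27 from 402 to 1138. IRF7, the factor that amplifies interferon transcription, rose from 11.8 to 78.5 FPKM. Other members were not called and had lower values in DAC: IFIT1 stood at 207 FPKM in DMSO and 83.6 in DAC, and IFI44 at 46.1 and 18.9. SAMD9 fell from 30.98 to 11.4 FPKM. In siStau1 cells 24 of the 44 rose and 0 fell, with a median of 1.87. The starting level was lower there for ISG15, at 320.0 FPKM in siStau1 DMSO.

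The interferon-stimulated response element, searched on both strands as 2 copies of TTTC with any 2 bases between them, was in 22 of the 34 matched promoters of these genes (64.7%) and in 3.19% of all promoters. Those of MX1 (chr21:41420308-41420607, plus strand, 20 CpG sites) and IFI27 (chr14:94110486-94110785, plus strand, 4 CpG sites), from RefSeq on GRCh38.p14, are shown as the largest rise on the list and as a promoter with few CpG sites, with matches in capitals.
MX1: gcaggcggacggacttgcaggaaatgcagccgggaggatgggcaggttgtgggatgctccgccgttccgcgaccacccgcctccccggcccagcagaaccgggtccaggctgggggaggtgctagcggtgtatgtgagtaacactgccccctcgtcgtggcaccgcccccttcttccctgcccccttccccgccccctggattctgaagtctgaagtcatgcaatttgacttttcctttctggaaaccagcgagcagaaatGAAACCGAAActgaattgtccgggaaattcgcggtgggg
IFI27: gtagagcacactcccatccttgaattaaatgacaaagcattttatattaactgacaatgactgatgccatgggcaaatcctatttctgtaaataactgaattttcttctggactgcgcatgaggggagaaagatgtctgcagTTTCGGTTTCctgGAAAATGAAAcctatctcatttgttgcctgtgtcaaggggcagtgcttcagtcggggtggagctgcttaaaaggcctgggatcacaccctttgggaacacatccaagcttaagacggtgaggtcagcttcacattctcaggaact
Among genes with the motif 7 of 22 rose, 1 fell, and the GC-centred median was 0.55, and among the 12 without it 4 rose and the median was 0.93. Outside the list, 23 of 238 tested genes with at least 1 FPKM in DMSO and the motif rose, and 628 of 8941 without it.

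Genes of double-stranded RNA sensing and of antigen presentation were called in both directions, though more rose. Of 22 double-stranded RNA sensors and adaptors, 21 were tested, 4 rose (19.05%, against 8.71% of all genes tested) and 1 fell (4.76%, against 4.78%), with a median of 0.32 (0.49 GC-centred). DHX58, which encodes the regulatory helicase LGP2, rose from 3.78 to 21.2 FPKM, the transcription factor IRF3 from 18.8 to 65.3, TICAM1, the adaptor of TLR3, from 1.59 to 8.11, and TARBP2, a partner of Dicer, from 16.1 to 41.01. STAU2, the paralogue of Staufen1, was the 1 member of this list that fell, from 27.9 to 7.33 FPKM. In siStau1 cells 2 of 21 tested members rose and 0 fell, and 0 were called higher in both arms. In antigen presentation by MHC class I, 5 of 20 rose and 1 fell. The peptide transporter TAP1 rose from 39.5 to 126 FPKM and the immunoproteasome subunit PSMB8 from 0.823 to 27.4, while B2M, the shared light chain, fell from 1442 to 599. The median of this list dropped from 1.14 to 0.61 on GC centring.

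Chemokines and NF-kB targets that were called all rose. Of 32, 24 were tested, 11 rose and 0 fell, with a median of 1.69 (1.63 GC-centred). IL32, a proinflammatory cytokine, rose from 5.45 to 55.9 FPKM, RELB and NFKB2, the subunits of the non-canonical pathway, from 4.22 to 33.9 and 19.2 to 75.7, and NFKBIA, the inhibitor IkB-alpha, from 53.2 to 136. The neutrophil chemokine CXCL1 rose from 3.54 to 16.1 FPKM, CCL5 from 4.65 to 18.4 and the adhesion molecule ICAM1 from 1.49 to 11.9. TNF was listed at 0 in DMSO and reached 2.54 FPKM.

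Markers of other cell types were also read. Of 14 immune cell markers 4 were tested, and their summed level over the list was 2.26 FPKM in DMSO and 29.7 in DAC, of which CD68, which many cell types make, held 17.1 (not called, from 1.498). CD3D rose from a listed 0 to 6.47 FPKM. The pan-leukocyte marker PTPRC was at 0 in DMSO and 0.174 FPKM in DAC, and NKG7 was listed at 0 in both. Of 12 fibroblast and endothelial markers 5 were tested, THY1 and PECAM1 rose, and the summed level was 2.004 FPKM in DMSO and 14.96 in DAC, while LUM and PDGFRA stayed under 0.03. All 4 tested immune markers and all 5 tested fibroblast and endothelial markers had ratios above 0. However, 3 of the 4 and 4 of the 5 stood under 0.528 FPKM in DMSO, every one that rose among them. These could only be tested through their level in DAC, so their sign is built in and is given as a description. TYROBP, on the immune list, went from 0.0668 to 2.99 FPKM and was not called. The part of other cells in these results was not tested. The epithelial marker EPCAM fell from 259 to 117 FPKM. The other epithelial markers read went the other way: KRT19 rose, and KRT8, KRT18 and CDH1 were higher in DAC but not called (values below). In bulk RNA a change in the number of cells of a type and in RNA per cell cannot be told apart.

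Immediate early genes, the first transcripts induced by growth factors and stress, rose in 13 of 26 tested cases. None of the 27 on the list fell, and the median over the 26 was 1.73 (1.25 GC-centred). The AP-1 subunits JUN, FOS and FOSL1 rose from 3.18 to 34.9, 5.505 to 37.5 and 7.69 to 42.4 FPKM, EGR1 from 4.25 to 14.7, KLF6 from 11.95 to 68.8 and the orphan receptor NR4A1 from 3.18 to 15.5. Targets of YAP and TAZ, the coactivators that the Hippo kinases restrain, rose in 9 of 20 genes and fell in 0, with a median of 1.42 (1.19 GC-centred). The matricellular proteins CTGF and CYR61 are on both lists and rose from 0.932 to 18.6 and 2.61 to 26.5 FPKM. AMOTL2 rose from 10.7 to 49.3 FPKM, the kinase NUAK2 from 0.711 to 7.37 and the DNA-binding partner TEAD4 from 9.51 to 34.4. In siStau1 cells 9 of 25 immediate early genes and 8 of 20 YAP targets rose, and 0 fell.

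Other signalling lists gave smaller or mixed changes. DUSP1 and DUSP5, phosphatases that switch off MAP kinases, rose from 4.79 to 41.3 and 54.7 to 177 FPKM, while the ligand EREG fell from 115 to 47.3 and the EGFR inhibitor ERRFI1 from 146 to 43.2. Over that list of 29 tested genes 4 rose and 3 fell. Of 37 tested TGF-beta and BMP pathway genes 4 rose (10.8%, near the 8.71% of all genes tested) and 0 fell. SMAD3 rose from 7.11 to 43.03 FPKM and the follistatin-like inhibitor FSTL3 from 7.83 to 35.5. Of 22 tested Notch genes 5 rose (22.7%), with HES4 from 11.1 to 66.7 FPKM, but the list's median of 0.87 dropped to 0.14 on GC centring. In the GC bin that holds the list's median GC content of 60.8%, 22.1% of protein-coding genes were called higher. WNT16 fell from 15.9 to 1.06 FPKM, the lowest GC-centred value (-3.20) of any called protein-coding gene that reached 1 FPKM in DMSO and in DAC, while WNT9A rose from 0.526 to 3.47. CCND1, the G1 cyclin, rose from 69.6 to 189 FPKM and the progenitor factor MYB fell from 5.19 to 0.727.

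p53 is wild type in HCT116, and 9 of 36 tested target genes rose and 1 fell, with a median of 0.57 (0.54 GC-centred). CDKN1A, the cell cycle inhibitor p21, rose from 51.1 to 192 FPKM, the cytokine GDF15 from 21.8 to 86.5, the 14-3-3 protein SFN from 77.8 to 237, the nuclease AEN from 21.3 to 69.5 and the kinase PLK3 from 5.38 to 29.3. RPS27L fell from 68.02 to 21.9 FPKM. The other 26 were not called. Among BCL2 family genes 4 of 17 rose (23.5%, against 8.71% of all genes tested): the killer proteins BAK1, BIK and BOK, from 9.91 to 51.3, 13.4 to 37.7 and 5.57 to 16.5 FPKM, and the protector BCL2L1, from 62.1 to 144. The median of this list dropped from 0.996 to 0.35 on GC centring. In the GC bin that holds its median GC content of 54.8%, 10.4% of protein-coding genes were called higher. In the integrated stress response, which works through ATF4, 6 of 24 rose and 2 fell. CHAC1, which degrades glutathione, rose from 2.83 to 19.2 FPKM and PPP1R15A, which ends the response, from 34.6 to 121, while DDIT4 fell from 62.9 to 24.4. Among heat shock chaperones 2 of 19 rose (10.5%, against 8.71% of all genes tested) and 3 fell (15.8%, against 4.78%). The median of this list was -0.68 (-0.40 GC-centred). HSP90AA1 fell from 657 to 233 FPKM and HSPD1 from 1214 to 484. In siStau1 cells 0 of the 19 rose and 0 fell, with a median of -0.16.

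Keratin and matrix genes that were called all rose. Of 55 keratins, 26 were tested, 9 rose and 0 fell, with a median of 2.34 (1.77 GC-centred). Of the 26, 12 stood under 0.528 FPKM in DMSO, 3 of the 9 that rose among them, and over the 11 that reached 1 FPKM in DMSO and in DAC the median was 1.52. KRT17, a basal keratin, rose from 4.37 to 198 FPKM, KRT7 from 4.77 to 96.8, KRT19 from 537 to 1419 and the differentiation keratin KRT20 from 1.16 to 6.24. KRT8 and KRT18, the main pair of simple epithelia, were not called at 1103 and 681 FPKM in DMSO and 3159 and 3469 in DAC. Of 48 mesenchymal and matrix genes, 34 were tested, 12 rose and 0 fell, with a median of 1.55 (1.09 GC-centred), and 9 of the 34, with 3 of the 12, stood under 0.528 FPKM in DMSO. COL6A1, a microfibril collagen, rose from 3.84 to 19.3 FPKM, TIMP1 from 92.8 to 302 and SNAI1, a repressor of epithelial genes, from 1.92 to 7.17. Laminin chains rose in 4 of 11 tested genes, with LAMB3 from 6.61 to 47.1 FPKM, and integrins in 4 of 17, with the collagen receptor subunit ITGA2 from 8.87 to 33.99. Epithelial junction genes were balanced: 2 of 33 rose and 3 fell, and the GC-centred median was 0.00. CDH1, which encodes E-cadherin, was not called at 14.3 and 26.5 FPKM. Of 34 intestinal epithelium genes only 10 were tested and 5 rose, among them HNF4A, from 1.47 to 4.25 FPKM, and CDX1, from a listed 0 to 0.947. Of these 10, 5 stood under 0.528 FPKM in DMSO, 3 of the 5 that rose among them.

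**Figure D4:**
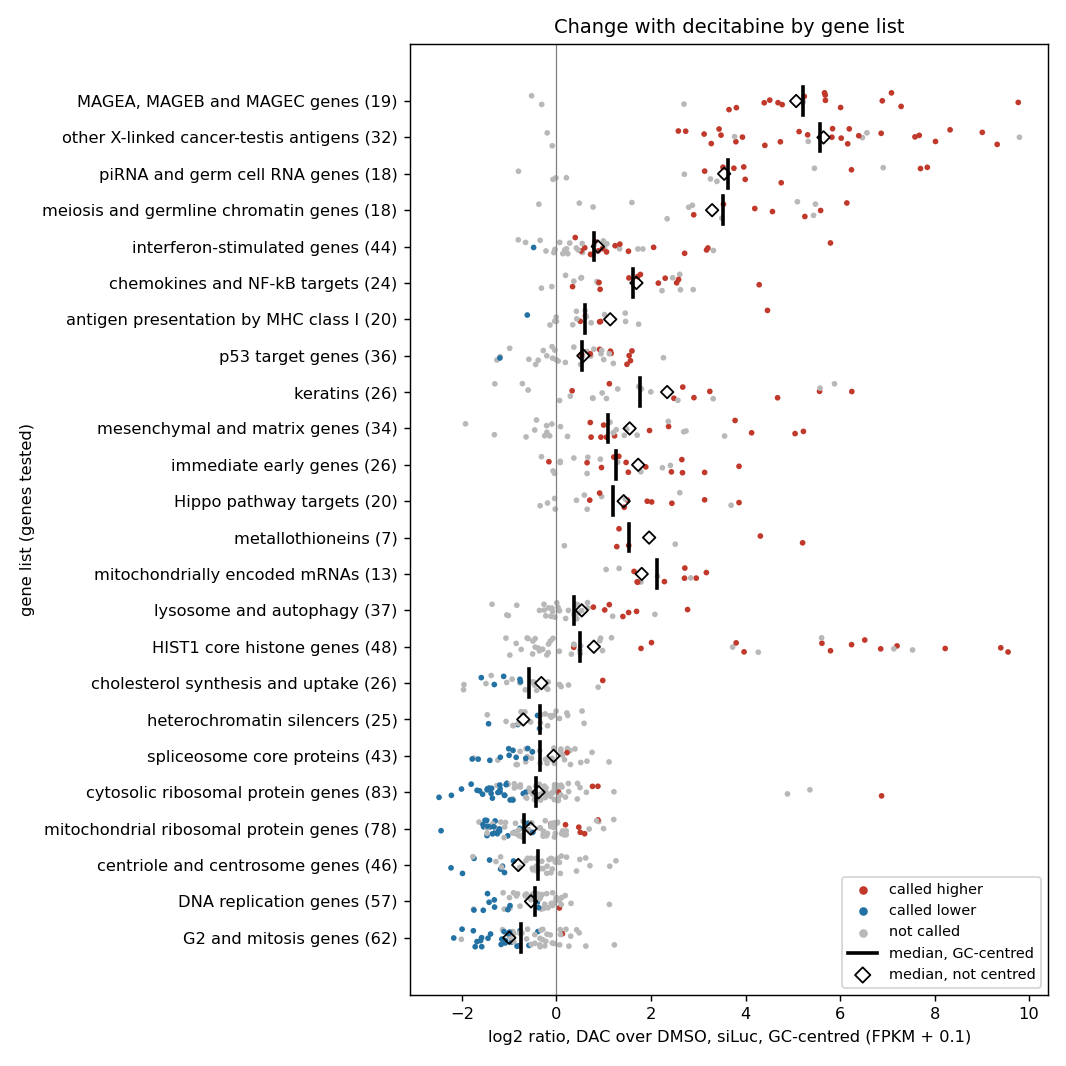
GC-centred log2 ratio of DAC over DMSO in siLuc cells (FPKM + 0.1) for the tested members of 24 gene lists, coloured by the authors' call, with the number tested in brackets; bars are GC-centred medians and diamonds medians before centring. Germline lists have medians from 3.52 to 5.58 after centring, set partly by the filter on low values, and the G2 and mitosis list has -0.75.

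Some transcripts of metal binding, transport and organelles also rose. Metallothioneins, small cysteine-rich proteins that bind zinc and copper, rose in 5 of 7 tested genes of 11, with MT1E from 68.8 to 268 FPKM, MT2A from 78.7 to 257 and MT1G from a listed 0 to 6.17, and 3 of the 7, with 2 of the 5, stood under 0.528 FPKM in DMSO. The glucose transporters SLC2A3 and SLC2A1 rose from 6.83 to 103 and 52.5 to 265 FPKM, although the glycolysis list as a whole had a GC-centred median of -0.29, with 4 of 23 higher and LDHB lower, from 1199.6 to 386. Lysosome and autophagy genes rose in 7 of 37 and fell in 0, led in level by the autophagy receptor SQSTM1, from 143 to 700.2 FPKM, and the protease CTSB, from 52.6 to 133. The ferritin chains FTL and FTH1 rose from 1019.8 to 3945 and 836 to 1823 FPKM, while catalase (CAT) and thioredoxin (TXN) of the same antioxidant list fell, from 25.1 to 6.73 and 356 to 98.6.

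The mRNAs of the mitochondrial genome went against the GC trend. Of the 13, 8 rose and 0 fell, and the median ratio of 1.80 became 2.14 on centring, since their transcripts have a median GC content of 44.3%. MT-ND1, a complex I subunit, rose from 33.96 to 267 FPKM, MT-CYB of complex III from 64.8 to 284 and MT-CO1 of complex IV from 725 to 2039. MT-ND6, the only mRNA of the light strand, was not called at 46.7 and 68.4 FPKM. These mRNAs made up 0.759% of the summed protein-coding FPKM in DMSO and 2.08% in DAC. In siStau1 cells 7 of 13 rose, with a median of 1.08. Nuclear-encoded partners did not follow: of 38 complex I genes 4 rose and 8 fell, with a GC-centred median of -0.38, NDUFA5 falling from 51.8 to 10.8 FPKM and NDUFB1 from 199.6 to 50.1.

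Falls were frequent among G2 and mitosis genes. All 62 were tested, 24 fell (38.7%, against 4.78% of all genes) and 1 rose, with a median of -0.999 (-0.75 GC-centred). HMMR, a spindle protein and hyaluronan receptor, fell from 39.3 to 4.43 FPKM, 8.87-fold. The kinesins KIF15 and KIF18A fell from 12.004 to 1.92 and 22.6 to 4.01 FPKM, the kinetochore proteins CENPK and CENPU from 16.8 to 2.84 and 23.3 to 5.04, the spindle checkpoint proteins MAD2L1 and TTK from 102 to 21.6 and 37.9 to 7.46, the condensin SMC2 from 12.6 to 2.15 and the kinase CDK1 from 95.4 to 32.9. CDC20, the activator of the anaphase-promoting complex, was the 1 gene that rose, from 139 to 258 FPKM. In siStau1 cells 19 of the 62 fell, 17 of them called in both arms, and 0 rose.

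Mitotic genes are known to carry a cell cycle homology region, searched as TTTGAA on both strands, and CCAAT boxes near their starts. TTTGAA was in 36 of the 55 matched promoters of this list (65.5%) and in 12.1% of all promoters, and CCAAT in 42 (76.4%) and in 36.6%. The promoter of HMMR (chr5:163460382-163460681, plus strand, RefSeq on GRCh38.p14) is shown as that of the largest fall on the list, with TTTGAA in capitals, where 2 copies lie end to end.
HMMR: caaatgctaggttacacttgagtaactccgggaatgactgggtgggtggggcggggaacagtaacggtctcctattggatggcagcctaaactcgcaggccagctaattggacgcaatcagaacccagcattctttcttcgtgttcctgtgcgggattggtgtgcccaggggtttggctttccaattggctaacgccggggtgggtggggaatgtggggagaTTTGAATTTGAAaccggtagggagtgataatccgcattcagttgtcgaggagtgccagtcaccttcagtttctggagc
Of the 36 list members with TTTGAA 19 fell, with a GC-centred median of -0.87, and of the 19 without it 4 fell, with a median of -0.61. The CCAAT box did not order the list that way: 17 of 42 with it and 6 of 13 without it fell. Outside the list, 84 of 819 tested genes with at least 1 FPKM in DMSO and TTTGAA fell (median -0.11 GC-centred), and 546 of 8338 without it (median -0.01).

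Other cell division lists had medians nearer to 0. DNA replication genes fell in 11 of 57 and rose in 1, with a median of -0.54 (-0.45 GC-centred). RRM1, a ribonucleotide reductase subunit, fell from 139 to 34.97 FPKM, the sliding clamp PCNA from 334 to 129.7, and DUT, which keeps uracil out of DNA, from 90.2 to 26.8, whereas the licensing factor CDT1 rose from 12.96 to 31.2. In Fanconi and homologous recombination genes 5 of 41 fell (12.2%, against 4.78% of all genes tested) and 0 rose. RAD51AP1 fell from 24.6 to 3.86 FPKM and BRIP1 from 14.99 to 3.58. In centriole and centrosome genes 8 of 46 fell (17.4%) and 0 rose, with CETN3 from 61.8 to 6.75 FPKM and MZT1 from 14.99 to 1.87. The medians of these 2 lists were -0.78 and -0.81 before and -0.34 and -0.39 after GC centring. Their transcripts had a median GC content of 41.4% and 41.8%. In the GC bin that holds both values, 13.3% of protein-coding genes were called lower, near the share of the Fanconi list. Of genes that handle the drug, DCK, the kinase that activates decitabine, fell from 17.03 to 4.801 FPKM and CMPK1, which adds the next phosphate, from 86.5 to 34.5, while CDA, which inactivates it, was not called at 7.77 and 21.99.

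Many genes of translation and RNA processing fell. Of 83 tested cytosolic ribosomal protein genes 25 fell (30.1%, against 4.78% of all genes tested) and 4 rose (4.82%, against 8.71%). Their median was -0.38 (-0.44 GC-centred), and their share of the protein-coding FPKM went from 22.1% to 17.99%. RPL22 fell from 553 to 119.6 FPKM, RPL5 from 1493 to 349 and RPS3A from 1843 to 415, while RPL28 and RPS15 rose, from 393 to 1059 and 954 to 1875. RPL39L, which also rose, is a testis paralogue that came from a listed 0 to 13.1 FPKM. Ribosomal protein genes have many processed pseudogenes, among which reads may be shared, and the 268 tested pseudogenes of this kind had a median of -0.93, with 2 higher and 6 lower. Of 78 mitochondrial ribosomal protein genes 22 fell (28.2%) and 6 rose, with a median of -0.55 (-0.68 GC-centred), led by MRPL1, from 37.5 to 4.37 FPKM, and MRPL13, from 74.3 to 13.8. Spliceosome core proteins fell in 11 of 43 (25.6%) and rose in 1, with SNRPG from 655 to 134 FPKM and SNRPB2 from 57.3 to 12.8. The median of that list was only -0.06 (-0.36 GC-centred). In tRNA synthetases 5 of 20 fell (25%), with DARS from 81.5 to 25.8 FPKM, and in hnRNP proteins 4 of 24 (16.7%), with HNRNPA2B1 from 475 to 176. In the GC bin that holds the hnRNP list's median GC content of 43.1%, 11.1% of protein-coding genes were called lower. Proteasome subunits were split, with 8 of 37 lower (21.6%), such as PSMA4 from 368 to 82.5 FPKM, and 4 higher (10.8%). In siStau1 cells 11 of 83 cytosolic and 11 of 78 mitochondrial ribosomal protein genes fell, and whether the arms differ was not tested.

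In lipid synthesis, 5 of 26 cholesterol genes fell and 1 rose, with a median of -0.32 (-0.59 GC-centred). MSMO1 and CYP51A1, enzymes of the late pathway, fell from 64.5 to 17.7 and 85.2 to 33.1 FPKM, and INSIG1, the sterol sensor partner, from 68.1 to 20.3. The desaturase SCD fell from 262 to 71.8 FPKM while FASN, the fatty acid synthase, rose from 26.9 to 94.4. In siStau1 cells 5 of 26 cholesterol genes also fell, 4 of them called in both arms.

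The DNA methyltransferases themselves were not called. DNMT1, the maintenance methyltransferase that the drug traps, was not called at 115 FPKM in DMSO and 86.2 in DAC, nor were DNMT3A (1.79 and 2.52), DNMT3B (9.42 and 11.2) and UHRF1 (24.9 and 22.7). The methyl-CpG-binding genes MBD1 and MBD3 rose from 9.76 to 33.7 and 11.7 to 49.5 FPKM, TET3, a methylcytosine oxidase, from 1.51 to 3.73, and GADD45B from 8.63 to 55.9. Over that list of 19 tested genes 4 rose (21.1%, against 8.71% of all genes tested) and 0 fell, and the median was 0.01 before and 0.00 after GC centring. Of 25 heterochromatin silencers 4 fell and 0 rose: ATRX from 26.1 to 7.601 FPKM, MPHOSPH8 and FAM208A, both of the HUSH complex, from 26.6 to 7.202 and 15.2 to 6.095, and the deacetylase HDAC2 from 102 to 45.9. SUZ12 of Polycomb complex 2 fell from 18.9 to 5.58 FPKM. Of 48 tested HIST1 core histone genes 14 rose and 0 fell, with HIST1H2BB from 3.84 to 403 FPKM and HIST1H3C from 3.41 to 371, and the linker histone HIST1H1B, the highest of the gained genes, was listed at 0 in DMSO and at 279 FPKM in DAC. Histone genes are near copies of each other and zeros among them may be failed estimates, so single values are uncertain. Summed over the HIST1 cluster, H2B genes had 6009 FPKM in DMSO and 7956 in DAC, H4 genes 4348 and 5639, H1 genes 3629 and 4440, H2A genes 1877 and 3092, and H3 genes 1670 and 3014.

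After GC centring and with histone genes left out, the largest changes among called protein-coding genes that reached 1 FPKM in DMSO and in DAC came from many pathways. Besides MX1, VIM, SPARC, KRT17 and SLC2A3, the 12 highest were KRTAP2-3, from 1.86 to 46.6 FPKM, the cytolytic protein PRF1, from 1.86 to 58.5, SMIM22, from 1.15 to 31.2, the trypanosome lytic factor APOL1, from 1.201 to 20.9, the kinase SGK1, from 2.65 to 18.9, the RAS activator RASGRP3, from 1.48 to 11.3, and the transcription factor ETS1, from 1.75 to 12.9. All 12 were also called higher in siStau1 cells. Besides WNT16 and MRPL1, the 12 lowest included the desuccinylase SIRT5, from 10.5 to 1.21 FPKM, the serotonin receptor HTR7, from 19.3 to 2.75, BEX2, from 48.2 to 9.396, TMSB15A, from 34.5 to 3.88, NIPSNAP1, from 72.9 to 19.4, the SIN3 corepressor subunit SAP30, from 18.8 to 4.24, the centromere protein ITGB3BP, from 39.5 to 5.23, ARHGAP18, from 46.9 to 5.34, and CIAO2A, an iron-sulphur assembly factor, from 109 to 14.1. Of these 12, 8 were called lower in siStau1 cells. BEX2 and TMSB15A lie on the X chromosome, where 17.4% of 461 tested genes rose and 7.59% fell. Among genes called lower and under 0.1 FPKM in DAC, those with the highest level in DMSO were ANKRD22, from 1.57 FPKM to a listed 0, and SULT1C2, from 0.979 to 0.0499.

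**Figure D5:**
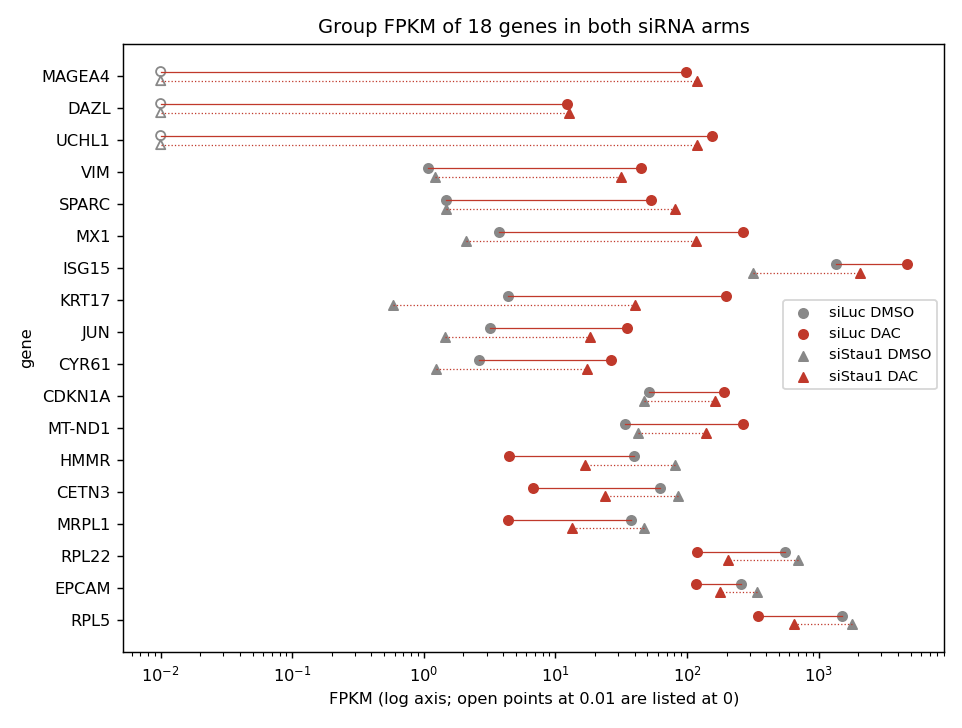
Group FPKM on a log axis for 18 genes in siLuc (circles, solid lines) and siStau1 (triangles, dotted lines) cells with DMSO (grey) and DAC (red); open points at 0.01 are listed at 0. Each gene's difference had the same sign in both arms, such as HMMR from 39.3 to 4.43 FPKM in siLuc.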

How the data were processed

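Total RNA was sequenced after ribosomal RNA depletion, with a stranded kit, per the labels' protocols. The authors deposited 1 gene table of FPKM, a single number for each of the 4 total RNA groups, beside a p-value and a q-value for the 6 pairs of groups, per the file headers. The submitters' processing notes name the hg38 build, HISAT2 2.1.0, featureCounts, DESeq 1.36.0, Cuffdiff 2.2.1 and Cuffnorm 2.2.1, without roles. Calls are the authors' deposited q-values under 0.05, and no test was computed here, since per-library values were not used here and the 2 libraries of a group stand behind 1 value. The deposited p-values rest on the authors' model and on these libraries, whose spread may be technical.

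From the deposited FPKM, log2 ratios were computed with a pseudocount of 0.1 (alternatives 1 and 0.01). Biotypes, positions and transcript GC came from GENCODE 29, in which all 58699 identifiers matched. GC centring (20 bins) was tested on simulated data. Promoters were RefSeq's on GRCh38.p14, matched by symbol. The 79 gene lists were written by hand, with 2 symbols unmatched. The comparison and lists were chosen with earlier results of these data known, and 1 list's pattern was corrected after the files were read. Named genes were the 12 highest and 12 lowest by GC-centred ratio among called protein-coding genes that reached 1 FPKM in DMSO and in DAC, histones left out, the 10 and 5 highest called genes with under 0.1 FPKM in the other group, and per list up to 3 called each way and 2 not called. Other genes named were chosen after their values were seen. A few genes that the rule names are not reported here, and counts over lists include them. For 1 gene the table gives unequal values between comparisons, and each arm's own comparison was used. Python 3.11.15, pandas 2.3.3 and numpy 2.4.6 were used.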

Additional observations from a re-analysis of the deposited data

How the results depend on the processing

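No paired analysis was possible because the table has 1 value per group, and for the same reason leaving out each replicate was not run. At a q-value limit of 0.01, 978 genes were called higher and 417 lower. Among genes that reached 1 FPKM in DMSO and in DAC, 897 were called higher. Requiring, in an alternative chosen after seeing the data, a GC-centred change of at least 1 left 1003 higher and 539 lower. Adjusting within the comparison, or keeping genes with at least 1 FPKM in either group, left both counts within 1.5 times. With members at 1 FPKM or more in both groups, list medians turned sign for MAGE genes (-0.34), other X-linked antigens (-0.053), piRNA genes (-0.35), Wnt ligands (-1.65) and RAB GTPases (-0.17), since this leaves out the genes gained from low levels. GC centring turned the medians of DNA methylation genes (-0.0018), Polycomb (-0.0050), the Hedgehog pathway (-0.22), glycolysis (-0.29), fatty acid synthesis (0.10), antioxidant genes (-0.055), nucleotide salvage (-0.22), proteasome (0.025) and nonsense-mediated decay (-0.031), and the gene HSPB1 (-0.20). Scaling to the same protein-coding sum turned DNA methylation genes (-0.0051). The medians of the other lists kept their sign under these 5 settings. The depth is unknown, and 1 value per group gives no error.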

Other observations

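Several classes of small noncoding RNA had medians well above that of all genes. Of 131 tested snoRNAs 8 rose (6.11%, against 8.71% of all genes tested) and 0 fell, with a median ratio of 1.91, of 59 snRNAs 8 rose (13.6%) and 0 fell (median 1.82), and of 115 genes of the miscellaneous RNA class 14 rose (12.2%) and 0 fell (median 2.09), against 0.23 over all genes. The signal recognition particle RNA RN7SL3 rose from 15306 to 72793 FPKM, the spliceosomal RNU4-1 from 1898 to 7149, the Ro-associated RNY1 from 1939 to 7032 and SNORA73A from 2716 to 15398. In siStau1 cells RN7SL3 was also called higher. RNU4-1, RNY1 and SNORA73A were not called there, with log2 ratios of 0.83, 0.70 and 0.89. GC centring left these class medians at 1.84, 1.84 and 1.68. The summed FPKM over all genes was 1129080 in DMSO and 1793610 in DAC, while that of protein-coding genes was 596466 and 601205.

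Long intergenic noncoding RNAs were called higher in 79 of 774 tested cases (10.2%, near the 8.71% of all genes tested). They were called lower in 5 (0.646%, against 4.78%), and their median was 0.77 (0.70 GC-centred). Many of those called higher were listed at 0 in DMSO and so could only be tested through DAC, which builds in part of this difference. LINC00958 was listed at 0 in DMSO and at 23.5 FPKM in DAC, CYTOR rose from 33.2 to 108 and MIR22HG, the host of miR-22, from 1.14 to 8.44. LINC00698 fell from 9.95 to 1.43 FPKM. Antisense genes rose in 28 of 788 cases (3.55%) and fell in 2 (0.254%), both under the shares of all genes tested. The snoRNA host genes SNHG12 and SNHG9 rose from 75.2 to 257 and 32.2 to 146 FPKM while SNHG6 fell from 328 to 90.04. Processed pseudogenes had a median below 0, at -0.62, but few were called. Of 1289 tested, 18 were higher (1.40%) and 26 lower (2.02%), both under the shares of all genes tested (8.71% and 4.78%).

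Chromosome 19, dense in GC-rich genes and in zinc finger clusters, had 18.8% of 1018 tested genes higher and 0.196% lower, and its median of 1.00 became 0.28 on GC centring. Chromosome 13 had 3.86% higher and 11.6% lower, and its median of -0.54 became -0.11.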
